A study of Homo sapiens with 12 samples.

Results

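T84, an established human colon carcinoma line that forms a tight epithelial sheet, was kept in Hanks buffered saline of pH 6.0 for 3 h or for 6 h, and the messenger RNA at 6 h was compared with that at 3 h. The comparison holds 6 of the 12 libraries of the series, 3 at each time, chosen by the pH and time that the labels give. The other 6 libraries come from the same line in saline of pH 7.4, again 3 at 3 h and 3 at 6 h, and serve here as the time course without acid. In all 4 groups confluent cells had exchanged their growth medium for saline, so lack of serum and nutrients runs alongside time at both pH values, and no library of cells in growth medium was analysed here. The labels name no batch and no culture of origin, so the spread behind every p-value is that of the libraries as deposited and could be technical only.

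The colon epithelium meets acid outside the cell when tissue is inflamed or poorly supplied with blood. Acid outside the cell is sensed by proton-gated receptors and channels and is countered by exchangers for protons, bicarbonate and lactate. Cells under such stress typically switch on immediate early genes, which need no new protein to be transcribed and encode transcription factors (FOS, JUN, EGR, ATF3, NR4A) and their brakes (DUSP phosphatases, ZFP36 RNA-decay factors). Chaperones, which refold damaged proteins, and NF-kB targets, which encode cytokines and inhibitors of NF-kB itself, belong to the wider stress response.

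Libraries held 13912532 to 18205946 counts at 3 h and 15383041 to 20525403 at 6 h in acid, and 16574741 to 24331032 in neutral saline. All 14 colon epithelium markers were expressed, with KRT8 at up to 4590 CPM (the usual count scaled to library size), while markers of other cell types reached at most 14 CPM (COL1A1, of fibroblasts), 13.0 CPM (ESAM, endothelial), 12.6 CPM (CHGA, enteroendocrine) and 9.51 CPM (LYZ, leukocytes). Mitochondrially encoded genes took 8.47% ± 0.918 of the counts at 3 h and 7.28% ± 0.131 at 6 h in acid (SD, n = 3 libraries each). Whether that share bears on any result was not tested.

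The 6 promoters below are shown because each belongs to a gene that rose between 3 h and 6 h in acid and holds a match to the binding motif named for its group. They are the 250 bases before and 50 bases after the start of the gene in RefSeq (build GRCh38.p14, which is not the build of the deposited counts), written 5′ to 3′ on the strand of the gene, with the match in capitals. A match is a description of letters, not a site shown to be bound. DUSP1 (chr5:172771146-172771445, minus strand) and MAFF (chr22:38201744-38202043, plus strand) hold the cAMP response element TGACGTCA. HSPA8 (chr11:123062087-123062386, minus strand) holds 2 and DNAJA1 (chr9:33025023-33025322, plus strand) holds 1 of the heat shock element, GAA, TTC and GAA with 2 free bases between them. NFKBIA (chr14:35404700-35404999, minus strand) and TNFAIP3 (chr6:137867009-137867308, plus strand) hold the NF-kB motif on the opposite strand, which reads GGGA, 2 free bases and TTCC.
DUSP1: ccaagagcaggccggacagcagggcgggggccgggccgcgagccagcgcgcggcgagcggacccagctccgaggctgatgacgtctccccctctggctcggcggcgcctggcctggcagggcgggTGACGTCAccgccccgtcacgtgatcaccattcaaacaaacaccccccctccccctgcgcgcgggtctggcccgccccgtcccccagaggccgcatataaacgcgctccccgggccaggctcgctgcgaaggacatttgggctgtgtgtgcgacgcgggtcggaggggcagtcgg
MAFF: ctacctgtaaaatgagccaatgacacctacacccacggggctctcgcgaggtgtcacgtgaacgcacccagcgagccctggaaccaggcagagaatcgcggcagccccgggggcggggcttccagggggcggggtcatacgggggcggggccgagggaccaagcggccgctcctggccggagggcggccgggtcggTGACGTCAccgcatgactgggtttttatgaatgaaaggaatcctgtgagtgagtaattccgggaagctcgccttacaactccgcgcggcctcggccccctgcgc
HSPA8: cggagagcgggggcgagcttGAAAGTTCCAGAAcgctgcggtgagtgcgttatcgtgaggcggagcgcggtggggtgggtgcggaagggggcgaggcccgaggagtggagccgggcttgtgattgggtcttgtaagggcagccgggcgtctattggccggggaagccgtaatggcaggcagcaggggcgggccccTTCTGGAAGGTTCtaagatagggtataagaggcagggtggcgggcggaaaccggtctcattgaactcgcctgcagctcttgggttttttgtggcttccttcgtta
DNAJA1: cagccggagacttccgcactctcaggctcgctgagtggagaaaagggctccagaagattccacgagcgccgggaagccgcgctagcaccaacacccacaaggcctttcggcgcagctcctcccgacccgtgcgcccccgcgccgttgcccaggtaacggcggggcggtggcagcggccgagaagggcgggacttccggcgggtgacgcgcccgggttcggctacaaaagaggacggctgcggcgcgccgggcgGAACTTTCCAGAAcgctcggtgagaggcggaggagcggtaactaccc
NFKBIA: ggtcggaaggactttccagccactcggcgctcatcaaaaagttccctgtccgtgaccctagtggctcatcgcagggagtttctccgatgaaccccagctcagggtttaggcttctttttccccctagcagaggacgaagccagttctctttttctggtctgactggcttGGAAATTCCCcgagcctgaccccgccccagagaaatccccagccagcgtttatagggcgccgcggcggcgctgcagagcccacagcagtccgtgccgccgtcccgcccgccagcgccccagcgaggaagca
TNFAIP3: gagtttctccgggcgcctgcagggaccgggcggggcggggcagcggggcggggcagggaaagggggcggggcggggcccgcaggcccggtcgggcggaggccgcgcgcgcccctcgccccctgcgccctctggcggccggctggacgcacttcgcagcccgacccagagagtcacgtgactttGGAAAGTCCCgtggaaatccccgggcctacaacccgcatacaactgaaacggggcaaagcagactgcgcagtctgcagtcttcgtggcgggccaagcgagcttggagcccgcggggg
Among all 27305 promoters of the same length, searched on both strands, 1.98% held the cAMP response element, 0.487% the heat shock element and 1.63% the NF-kB motif. Among 1055 promoters of genes that rose in acid these shares were 3.79%, 1.04% and 3.41%, against 3.21%, 0.321% and 1.63% of tested genes. The groups described below were gathered by pathway, so higher shares there may follow from membership alone and are description only.

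Between 3 h and 6 h in acid, most immediate early and chaperone genes and many NF-kB and sterol synthesis genes rose, and most HOXA and HOXB genes, many zinc finger genes, AXIN2 and MYC fell. Of 15630 tested genes, 3050 (19.5%) changed at an adjusted p under 0.05 in edgeR's quasi-likelihood test with Benjamini-Hochberg adjustment, 1351 (8.64%) higher and 1699 (10.9%) lower at 6 h. Such genes are called higher or lower, or are said to have risen or fallen, from here on. At least 2-fold changes were made by 220 of the risen (1.41% of tested genes) and 279 of the fallen genes (1.79%). The 3 libraries of each time did not overlap for 5565 genes (35.6%), 2985 of them called. The median called gene moved by 0.48 on the log2 scale, and the median over all tested genes was −0.019. These are shares of the RNA of a whole culture, in which fewer cells of a kind and less RNA per cell cannot be told apart.

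The balance of rises and falls moved with the scaling. The share of risen genes among those called was 44.3%, against 23.6% (773 higher, 2499 lower) when libraries were scaled by their totals alone, which placed the median of all genes at −0.104. It was 59.9% (2174 higher, 1453 lower) after a correction for gene length and 55.7% (1898 higher, 1510 lower) without the first 3 h library. Without the third 3 h library 1915 genes were called. Risen genes had a median length of 2658 bases and fallen genes of 3821 bases, against 2994 for all tested genes. By deciles of gene length, the median log2 change in acid went from 0.117 in the second decile to −0.128 in the longest. In the longest, 51 genes rose and 259 fell. The deviation of each 3 h library from the mean of the acid libraries had a Spearman rho with length of −0.130, 0.301 and 0.139. At 6 h these values were −0.0885, −0.162 and −0.142. The first 3 h library was thus closer to the 6 h libraries than to its own group. In neutral saline the slope over length ran the opposite way, from −0.247 in the second decile to 0.351 in the longest, in which 858 genes rose and 46 fell. Where the length correction or totals alone moved the larger of a group's 2 counts, of rises or of falls, by more than 1.5 times, those counts are given with the group.

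**Figure D1:**
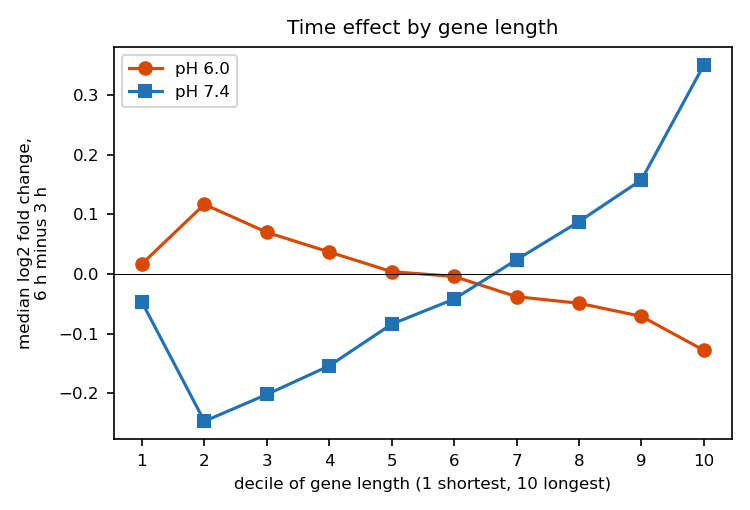
Median log2 change from 3 h to 6 h (y axis) in each decile of tested genes by length (x axis, 1 shortest and 10 longest), in saline of pH 6.0 (circles) and pH 7.4 (squares). The acid line falls from 0.117 in the second decile to −0.128 in the longest, and the neutral line rises from −0.247 to 0.351.

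Time in neutral saline, measured in libraries that share none with the acid comparison, changed 4942 genes (31.6%), 2695 higher (17.2%) and 2247 lower (14.4%). Of the genes that rose in acid, 431 (31.9%) also rose in neutral saline, which is 16% of the neutral rises, 211 (15.6%) fell there and 709 (52.5%) were not called. Of the genes that fell in acid, 258 (15.2%) also fell in neutral saline, which is 11.5% of the neutral falls, 301 (17.7%) rose and 1140 (67.1%) were not called. Across the 15630 genes, which are not independent replicates, the log2 changes in acid and in neutral saline had a Pearson r of 0.098 and a Spearman rho of 0.028. The test of the difference itself, the change in acid minus the change in neutral saline, called 4589 genes (29.4%), 2048 (13.1%) with a more positive and 2541 (16.3%) with a more negative change in acid. After the length correction it called 3546 genes, 2013 with a more positive and 1533 with a more negative change in acid.

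**Figure D2:**
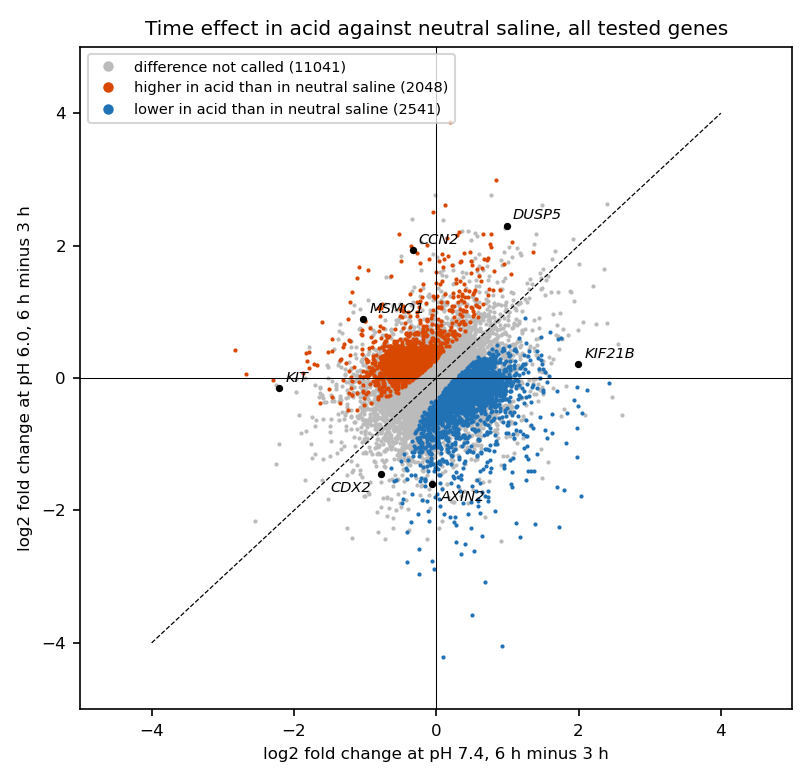
Each point is a tested gene, with its log2 change from 3 h to 6 h at pH 7.4 on the x axis and at pH 6.0 on the y axis, and the dashed line marks equal change. The 2048 genes with a more positive change in acid (orange) lie above the line and the 2541 with a more negative one (blue) below it. TYRP1, at 9.05 on the y axis and not called, lies outside the axes.

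The 10 largest rises among well-expressed genes were in DUSP5, FOSB, TENT5B, CSRNP1, CXCL8, SERTAD1, RND1, GEM, FOSL1 and CD83, with log2 changes from 2.01 to 2.30. DUSP5, a nuclear phosphatase that switches off ERK kinases, stood at 35.8, 35.6 and 35.5 CPM at 3 h and at 165, 197 and 166 CPM at 6 h. It rose 2.30 ± 0.10 on the log2 scale (± is a standard error here and below; edgeR adjusted p = 2.8e-13), against 0.99 ± 0.11 in neutral saline. FOSB, a partner of JUN in the AP-1 transcription factor, went from 15.2, 23.8 and 16.8 CPM to 81.5, 86.7 and 87.0 CPM (2.20 ± 0.14). In neutral saline FOSB had group means of 3.04 and 3.82 CPM, without a call. CSRNP1, a nuclear protein first described as induced by AXIN1, went from 98.8–102 CPM to 427–512 CPM (2.18 ± 0.08). CXCL8, the neutrophil-attracting chemokine interleukin 8, went from 8.29, 4.42 and 5.51 CPM to 28.1, 33.5 and 21.3 CPM (2.17 ± 0.27), the most scattered of the 10. For CXCL8 the rise in neutral saline was 1.40 ± 0.29, and the difference between both saline solutions was not called (0.77 ± 0.40, edgeR adjusted p = 0.171). SERTAD1, a regulator of the E2F and CDK4 cell cycle machinery, stood at 14.4–19.9 CPM at 3 h and 75.1–82.4 CPM at 6 h. RND1, a GTP-binding protein that loosens cell adhesion, went from 3.93–4.95 to 17.5–20.7 CPM, and GEM, a GTP-binding inhibitor of calcium channels, from 14.8–20.5 to 68.5–72.2 CPM. The AP-1 subunit FOSL1 went from 25.7–36.1 to 111–141 CPM, and the immune surface protein CD83 from 3.44–5.46 to 16.4–21.2 CPM. TENT5B, a poly(A) polymerase, stood at 3.13–4.42 CPM at 3 h and 15.0–17.9 CPM at 6 h. The 3 h and 6 h libraries of none of the 10 overlapped, as the naming rule required.

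The 10 largest falls were in HPS6, AXIN2, RASSF10, HOXB3, CDX2, ZBTB9, HOXB4, DOLK, EGLN3 and PAQR8, with log2 changes from −1.33 to −1.85. HPS6, a subunit of the complex that builds lysosome-related organelles, fell from 18.4, 15.6 and 16.8 CPM to 4.21, 4.85 and 4.98 CPM, a change of −1.85 ± 0.12 (edgeR adjusted p = 1.36e-10). AXIN2, the feedback inhibitor that Wnt signalling induces, fell from 24.5, 23.7 and 27.5 CPM to 8.83, 7.43 and 8.73 CPM (−1.61 ± 0.11). In neutral saline AXIN2 had group means of 54.4 and 52.5 CPM, without a call. CDX2, the transcription factor that maintains intestinal identity, stood at 279, 300 and 284 CPM at 3 h and at 96.5, 99.6 and 121 CPM at 6 h (−1.44 ± 0.09). It also fell in neutral saline, by 0.78 on the log2 scale, and the fall in acid was larger (difference −0.66 ± 0.13, edgeR adjusted p = 0.000583). Group means of CDX2 were 288 and 106 CPM in acid and 171 and 99.4 CPM in neutral saline. The level in acid was thus above neutral at 3 h and not below it at 6 h. EGLN3, an oxygen-sensing prolyl hydroxylase, went from 83.9–93.1 CPM to 32.7–36.8 CPM in acid. Its neutral group means were 45.9 and 40.4 CPM, without a call. PAQR8, a membrane progestin receptor, went from 76.2–92.0 to 32.2–35.9 CPM. RASSF10 went from 10.6–12.2 to 3.26–4.35 CPM, and DOLK, the kinase that makes dolichol phosphate for protein glycosylation, from 7.45–9.77 to 2.79–4.65 CPM. ZBTB9 went from 9.89–11 to 1.84–6.32 CPM, but 99.8% of its exon length overlaps another gene, so its counts cannot be assigned with certainty. Exons of other genes also overlap 25.2% of AXIN2, 13.2% of HOXB3 and 17.1% of HOXB4.

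**Figure D3:**
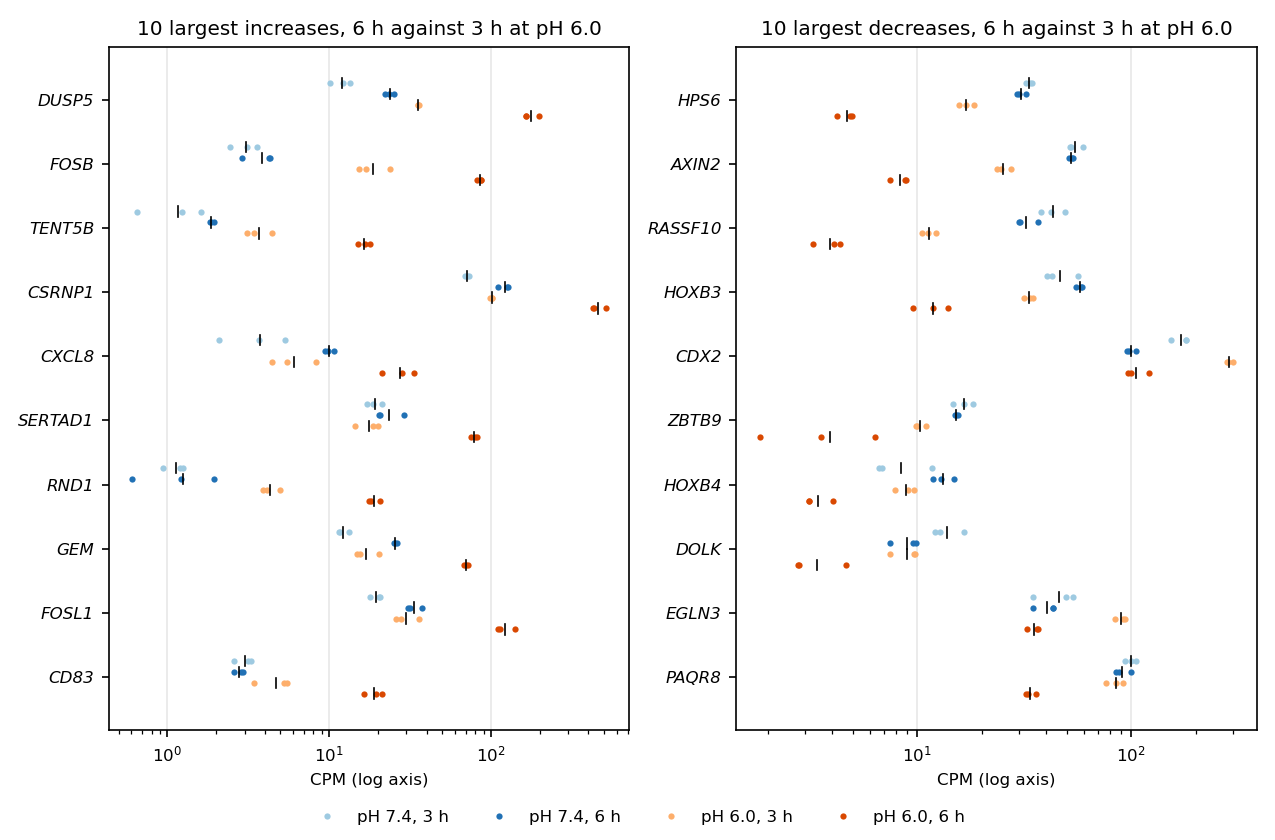
CPM (x axis, log scale) of the 10 genes with the largest rises (left) and falls (right) between 3 h and 6 h in acid, with 1 point per library, 3 libraries per group, and a tick at the group mean. DUSP5 goes from about 35.6 CPM in the acid 3 h libraries to 165–197 CPM at 6 h, and CDX2 from 279–300 to 96.5–121 CPM.

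Immediate early genes moved up nearly as a group: of 42 tested, 37 rose and none fell, with a median log2 change of 1.21. They were the most often called of the 46 lists, at 88.1% against 8.64% of all tested genes. In neutral saline 23 rose and 1 fell, and the difference was called more positive in acid for 29 and more negative for 2. CPM summed over the list was 5440–5570 at 3 h and 9910–11500 at 6 h in acid, against 3060–3180 and 4490–4800 in neutral saline. The 5 members not called were FOS, EGR1, FOSL2, ZFP36L1 and RHOB. FOS, the founding AP-1 subunit, stood at 463, 515 and 451 CPM at 3 h and at 370, 455 and 423 CPM at 6 h (−0.19 ± 0.08, edgeR adjusted p = 0.104), and the 3 h and 6 h libraries overlapped. EGR1, a zinc finger factor induced together with FOS, stood at 871–1006 CPM and 865–1034 CPM (0.06 ± 0.08). Both were far above their neutral levels at both times, where group means were 79.6 and 103 CPM for FOS and 250 and 316 CPM for EGR1. The change of FOS differed between both saline solutions (−0.56 ± 0.12, edgeR adjusted p = 0.00149), while the difference was not called for EGR1 (−0.27 ± 0.12, adjusted p = 0.0804). Other immediate early genes rose: JUNB went from 269–327 to 499–629 CPM, JUN from 272–304 to 486–632 CPM, ATF3 from 66.6–69.7 to 188–211 CPM and IER3 from 170–294 to 582–768 CPM. KLF6 and MAFF, transcription factors of the KLF and small MAF families, went from 294–308 to 628–699 CPM and from 50.8–54.0 to 170–193 CPM. PPP1R15A, which directs a phosphatase to the translation factor eIF2, went from 134–149 to 468–521 CPM (1.81 ± 0.08).

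Targets of cAMP signalling and its factor CREB, which acid-sensing receptors can engage, rose in 13 of 22 and fell in 3 (median 0.81). Groups in this text share members, so their counts are not separate. NR4A1 is in this group and among the immediate early genes, and DUSP5 is among those and the ERK-induced genes. The orphan nuclear receptor NR4A1 stood at 298, 338 and 295 CPM at 3 h and 961, 1089 and 1073 CPM at 6 h (1.75 ± 0.09, edgeR adjusted p = 4.69e-12). In neutral saline NR4A1 was at group means of 43.9 and 55.1 CPM. Its relatives NR4A2 and NR4A3 went from 9.20–9.93 to 17.5–22.9 CPM and from 0.764–2.17 to 8.39–11.9 CPM. NR4A3 made the largest log2 change of the group (3.00 ± 0.33), at a mean count too low for the list of the largest rises. The clock repressor PER1 went from 64.7–67.2 to 199–217 CPM. DUSP1, a phosphatase that switches off p38, JNK and ERK, went from 65.8, 66.9 and 61.8 CPM to 188, 213 and 194 CPM (1.61 ± 0.10). The fallen members were CITED2, PPARGC1A and PER2, with CITED2, a modulator of the coactivator CBP/p300, going from 15.5–21.9 to 7.47–9.55 CPM. Of the risen CREB targets with a promoter in RefSeq, 3 of 10 (AREG, DUSP1, VGF) held the cAMP response element (4 of 19 over all tested members), and so did 3 of 26 risen immediate early genes (DUSP1, JUND, MAFF), against 3.21% of the tested genes with a promoter. In DUSP1 the match begins 125 bases before the start, in MAFF 54 bases before it. The AP-1 letters TGANTCA were found in none of these 26 windows, a number too small to read much into. They were in 6.35% of windows of all risen genes, 3.52% of those of fallen genes and 4.72% of those of tested genes.

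Genes that ERK signalling induces, among them its own inhibitors, rose in 13 of 23 and fell in 3 (median 0.60), and 17 of them rose in neutral saline (median 0.72). EPHA2, an ephrin receptor, went from 190–214 to 571–643 CPM (1.57 ± 0.08), and the growth factor HBEGF from 15.4–20.6 to 61.7–76.3 CPM (1.90 ± 0.11). HBEGF rose by 1.37 ± 0.11 in neutral saline as well. Among the inhibitors, SPRY4 and DUSP6 rose, from 82.4–83.1 to 131–140 CPM and from 128–183 to 234–279 CPM. SPRY1 fell, from 13.3–17.6 to 6.59–8.67 CPM (−0.96 ± 0.13), as did DUSP7 and CCND1. CCND1, which encodes cyclin D1, went from 190–199 to 151–175 CPM, a call lost in 5 of the 6 fits that left out a library of the comparison (adjusted p up to 0.208) and after the length correction. The difference was called more positive in acid for 5 and more negative for 8 of the 23.

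NF-kB targets and feedback genes rose in 22 of 32 and none fell (median 0.65). In neutral saline 9 rose and 2 fell, and the difference was more positive in acid for 12 and more negative for 1. NFKBIA, the inhibitor that traps NF-kB in the cytoplasm, went from 208, 153 and 175 CPM to 286, 332 and 295 CPM (0.77 ± 0.09, edgeR adjusted p = 3.31e-06). TNFAIP3, the ubiquitin-editing brake on NF-kB also known as A20, went from 191, 178 and 179 CPM to 341, 375 and 311 CPM (0.91 ± 0.09). In neutral saline NFKBIA fell (−0.37 ± 0.10) and TNFAIP3 changed by −0.08 ± 0.09, without a call. The inhibitor NFKBIE and its relative BCL3 went from 20.3–24.4 to 56.8–65.4 CPM and from 77.6–92.7 to 208–233 CPM, and the NF-kB subunit RELB from 23.2–34.0 to 54.5–67.9 CPM. Chemokines were mixed: CCL20, which attracts dendritic cells and lymphocytes, went from 24.7–32.9 to 77.0–85.7 CPM. CXCL2 and CXCL3, close relatives of CXCL8, were at 2.40 CPM or below in all acid libraries and not called. Of the risen members with a promoter in RefSeq, 6 of 19 (CXCL10, NFKB1, NFKBIA, NFKBIZ, REL, TNFAIP3) held the NF-kB motif, against 1.63% of tested genes. The share was no lower over all tested members, 10 of 28, since CXCL1, CXCL2, CXCL3 and LTB held it without a call. The match begins 81 bases before the start of NFKBIA and 67 before that of TNFAIP3.

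Chaperone genes rose in 23 of 31 and fell in 1 (median 0.57), while 8 rose and 3 fell in neutral saline (median 0.05), and the difference was more positive in acid for 19 and more negative for none. CPM summed over the list went from 8260–8620 to 12900–14100 in acid. DNAJB1, the J-protein partner of the HSP70 chaperones, went from 363, 434 and 400 CPM to 1251, 1213 and 1354 CPM (1.67 ± 0.09, edgeR adjusted p = 5.56e-12). In neutral saline DNAJB1 had group means of 239 and 256 CPM, without a call. The inducible HSP70 gene HSPA1B went from 291–401 to 880–1034 CPM and its near-identical copy HSPA1A from 3.87–4.91 to 13.6–16.1 CPM. Reads of that pair may have been split between them by the counting. The HSP70 cochaperones HSPH1 and BAG3 went from 121–162 to 294–346 CPM and from 25.4–27.4 to 53.9–58.2 CPM. HSPA8, the constitutive HSP70, went from 994, 988 and 982 CPM to 1603, 1500 and 1544 CPM (0.65 ± 0.08), and mitochondrial HSPD1 from 1061–1112 to 1533–1764 CPM. DNAJA1 went from 150, 155 and 158 CPM to 269, 253 and 254 CPM. HSF2, a heat shock transcription factor and the only member that fell, went from 12.8–16.7 to 8.44–12.2 CPM, with an edgeR adjusted p of 0.00775 and of 0.0778 without the second 6 h library. Of 22 risen members with a promoter in RefSeq, 5 (CHORDC1, DNAJA1, DNAJB6, HSPA8, SERPINH1) held the heat shock element, against 5 of 28 over all tested members and 0.321% of tested genes. In HSPA8 the first of both matches begins 230 bases before the start, and in DNAJA1 the match lies just after the start.

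Genes of the unfolded protein response of the endoplasmic reticulum rose in 9 of 28 and fell in 1 (median 0.22), with 4 higher and 8 lower in neutral saline. In acid 17 rose and 1 fell after the length correction, and 5 rose and 2 fell with totals alone. The chaperone HSPA5 went from 939, 968 and 962 CPM to 1527, 1470 and 1773 CPM (0.73 ± 0.08), and HERPUD1, of the degradation machinery, from 94.1–97.6 to 218–235 CPM. HERPUD1 was not called in neutral saline, at group means of 103 and 104 CPM. XBP1, a transcription factor of this response, went from 187–199 to 279–295 CPM. DDIT3, the stress factor CHOP, went from 10.7–15.5 to 29.2–33.6 CPM, although exons of MARS1 overlap 39.6% of it.

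Targets of ATF4, the factor of the integrated stress response, rose in 18 of 35 (median 0.31), and in 23 in neutral saline (median 0.55). The difference was more positive in acid for 6 and more negative for 15. The amino acid synthesis gene ASNS went from 116–133 to 150–159 CPM in acid, while its neutral group means were 183 and 292 CPM. TRIB3, a pseudokinase that restrains ATF4, went from 342–421 to 527–606 CPM, and SESN2, an inhibitor of mTORC1, from 43.1–55.7 to 90.4–109 CPM. The cystine transporter SLC7A11 stood at 57.3–75.4 and 92.2–112 CPM in acid (0.59 ± 0.11) and rose by 1.71 ± 0.11 in neutral saline, so that its difference was negative (−1.12 ± 0.16, edgeR adjusted p = 4.1e-05). The only member to fall was ALDH1L2, at 1.5 CPM or below, with a call lost without any 1 of 4 libraries. Genes of the aminoacyl-tRNA synthetases, many of them ATF4 targets, rose in 6 of 20 and fell in 1 in acid, and rose in 12 and fell in 2 in neutral saline. The acid counts were 12 and none after the length correction and 3 and 1 with totals alone.

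Cholesterol synthesis and uptake genes moved in opposite directions in acid and neutral saline. In acid 14 of 26 rose and none fell (median 0.25), in neutral saline 1 rose and 21 fell (median −0.42), and the difference was more positive in acid for 20 and more negative for none. With totals alone 8 rose and 1 fell in acid. HMGCS1, an early enzyme of the pathway, went from 232, 264 and 243 CPM to 494, 436 and 486 CPM in acid (0.94 ± 0.08, edgeR adjusted p = 1.19e-08) and fell from a group mean of 151 to 87.3 CPM in neutral saline. MSMO1, which removes methyl groups from sterol precursors, went from 206, 208 and 210 CPM to 387, 353 and 419 CPM, against group means of 153 and 75.2 CPM in neutral saline. INSIG1, the sterol-regulated brake on SREBP processing, went from 268–282 to 440–505 CPM in acid. The difference was 1.73 ± 0.11 for HMGCS1, 1.92 ± 0.12 for MSMO1 and 1.68 ± 0.12 for INSIG1.

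Fatty acid synthesis genes rose in 4 (18.2%) and fell in 2 (9.09%) of 22 in acid, with a median of 0.08. In neutral saline 1 rose and 9 fell. After the length correction 7 rose and 2 fell in acid, whereas with totals alone 1 rose, 4 fell and the median was negative. GPAM, the first enzyme of triglyceride assembly, fell from 8.84–12.1 to 4.50–5.98 CPM. Of 26 glycolysis genes 3 rose and 1 fell in acid (median 0.13), which is 11.5% and 3.85%, against 8.64% and 10.9% of all tested genes. In neutral saline 3 rose and 16 fell, and the difference was more positive in acid for 17 and more negative for 1. The acid counts were 6 higher and 1 lower after the length correction and 1 and 2 with totals alone. Lactate dehydrogenase LDHA stood at 3353, 3076 and 3232 CPM at 3 h and at 3949, 3592 and 3825 CPM at 6 h in acid (0.23 ± 0.09, edgeR adjusted p = 0.0608), and its neutral group means were 2757 and 1849 CPM. Its partner subunit LDHB went from 390–462 to 516–586 CPM. Other targets of the hypoxia factor HIF rose in 6 (24%) and fell in 2 (8%) of 25 (median 0.08). With totals alone 3 rose and 2 fell, with a negative median. The vasodilator gene ADM went from 12–14.1 to 17.8–23.7 CPM.

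**Figure D4:**
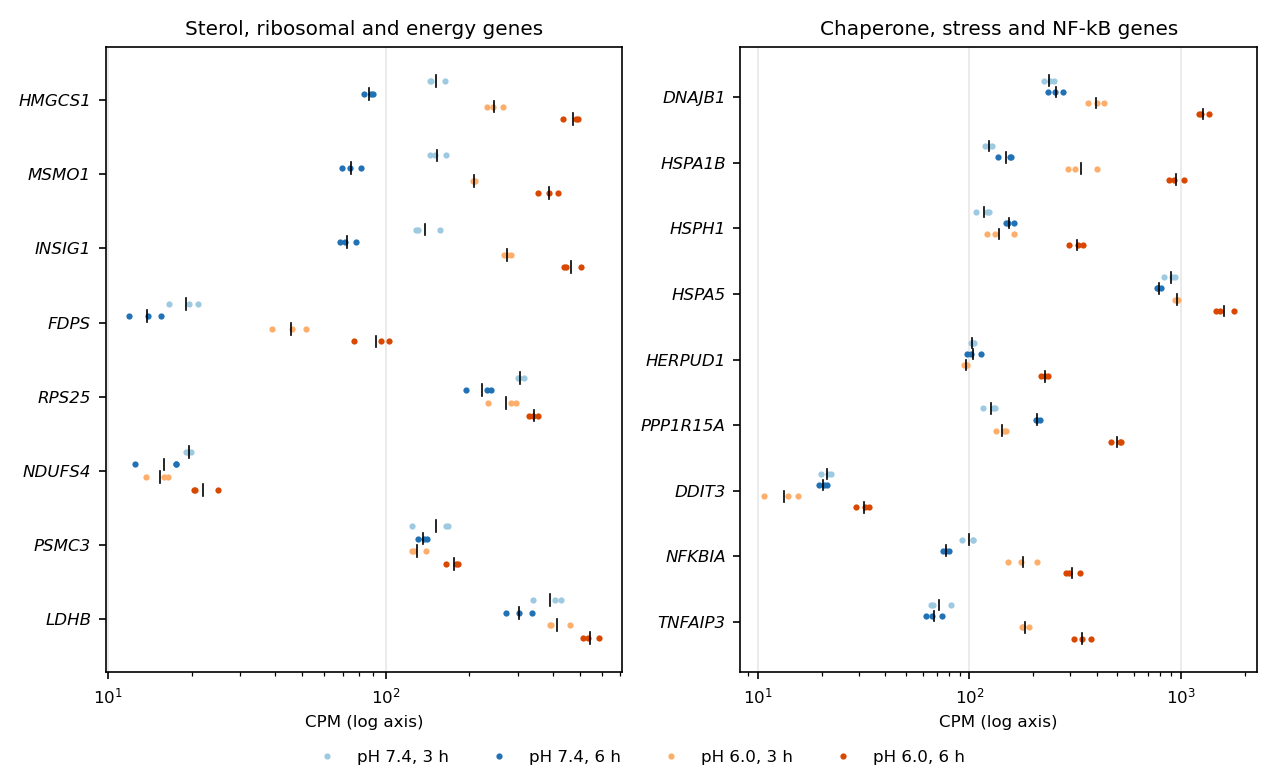
CPM (x axis, log scale) of sterol, ribosomal, energy, chaperone, stress and NF-kB genes, with 1 point per library, 3 libraries per group, and a tick at the group mean. HMGCS1, MSMO1 and INSIG1 are lower at 6 h than at 3 h in neutral saline and higher at 6 h than at 3 h in acid, and DNAJB1 goes from 363–434 to 1213–1354 CPM in acid.

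Groups that encode the basic machinery of translation, respiration and protein turnover had more rises than falls in acid and more falls than rises in neutral saline. By group, only the acid counts are also given after the length correction. Falls in neutral saline were frequent among short genes in general, with 401 lower and 41 higher in the second length decile. Cytosolic ribosomal protein genes rose in 16 of 78 and fell in 1 (median 0.30), against none higher and 60 lower in neutral saline (median −0.42), and the difference was more positive in acid for 64 and more negative for none. RPS25 went from 296, 233 and 283 CPM to 339, 329 and 354 CPM (0.33 ± 0.09, edgeR adjusted p = 0.0127), a call lost with totals alone (adjusted p = 0.0522) and without the second 3 h library (0.093). CPM summed over ribosomal protein genes spread over 34900–47800 at 3 h and 49100–51100 at 6 h. Their median length was 1784 bases, their risen count was 37 after the length correction, and it was 1, with 1 lower, with totals alone. Nuclear genes of oxidative phosphorylation rose in 16 of 70 and none fell (median 0.28), against none and 39 in neutral saline, with 19 risen after the length correction and 4, with 1 lower, with totals alone. Proteasome genes rose in 14 of 34 and none fell, 22 after the length correction and 9 with totals alone, and 1 rose and 15 fell in neutral saline. NDUFS4, a subunit of respiratory complex I, went from 13.7–16.5 to 20.4–25.0 CPM, and PSMC3, an ATPase of the proteasome, from 125–140 to 165–183 CPM. Of the 13 mitochondrially encoded mRNAs none was called in either direction (median −0.14) by edgeR.

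Of 30 p53 targets and growth-arrest genes 15 rose and 2 fell (median 0.41), against 12 and 3 in neutral saline. CDKN1A, the inhibitor p21, went from 76.3–97.3 to 157–192 CPM in acid. GADD45B, a stress sensor that activates p38 and JNK kinases, went from 39.4, 30.7 and 30.9 CPM to 116, 126 and 133 CPM (1.89 ± 0.10), and its relative GADD45A from 32.4–48.9 to 106–128 CPM. BTG2, an antiproliferative RNA-decay factor, went from 68.0–85.3 to 165–209 CPM. Among the members that fell was SESN1, whose call was lost without any 1 of 3 libraries. MDM2, a ubiquitin ligase, stood at 47.2–63.3 and 43.4–52.1 CPM (−0.29 ± 0.11, edgeR adjusted p = 0.0625) and rose in neutral saline. In the BCL2 family of cell death regulators 5 of 15 rose (33.3%) and 2 fell (13.3%), against 8.64% and 10.9% of all tested genes. The survival gene MCL1 went from 726–728 to 1757–1884 CPM (1.33 ± 0.07), and the death-promoting BBC3 and PMAIP1 from 54.8–67.4 to 125–157 CPM and from 29.4–35.7 to 59.9–73.3 CPM. The death-promoting BMF fell, from 30–34.6 to 12.1–19.6 CPM.

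Among Wnt targets and stem cell genes 8 of 25 fell and 2 rose (median −0.20), against 5 and 7 in neutral saline, and the difference was more negative in acid for 11 and more positive for none. With totals alone 13 fell and 2 rose. Beside AXIN2, the growth regulator MYC fell from 71.9, 50.9 and 58.1 CPM to 22.9, 26.2 and 24.3 CPM (−1.30 ± 0.10, edgeR adjusted p = 3.52e-09). In neutral saline MYC had group means of 193 and 201 CPM, without a call. The Wnt receptor FZD7 went from 36.6–45.0 to 20.4–25.0 CPM and FRAT2, an inhibitor of the kinase GSK3, from 23.9–29.5 to 15.7–18.6 CPM. MXD1, which competes with MYC for its partner MAX, rose from 67.6–76.9 to 131–143 CPM. Genes of ribosome assembly and RNA polymerase I fell in 11 of 44 and rose in 2 (median −0.04), with the polymerase subunit POLR1B going from 53.9–64.7 to 35.2–36.3 CPM. PIK3R1, the regulatory subunit of the kinase PI3K, fell from 77.7–97.2 to 37.2–42.0 CPM (−1.14 ± 0.10).

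HOX genes, which set position along the body axis, fell in the A and B clusters. This grouping was made after their values were seen, and exons of neighbouring transcripts overlap several members. Of 11 HOXA genes 8 fell and none rose (median −0.66), and of 9 HOXB genes 6 fell and none rose (median −0.62). Of 7 HOXC and HOXD genes none was called (median −0.46). HOXC and HOXD genes were less expressed, with CPM summing to 33.5–37.0 at 3 h in acid. The sums were 159–161 for HOXA and 383–392 for HOXB. Whether the clusters differ in their change was not tested. In neutral saline 1 HOXA and 4 HOXB genes rose and none fell, and the difference was more negative in acid for 7 and 6. HOXB3 went from 31.6, 34.9 and 33.8 CPM to 9.58, 11.9 and 13.9 CPM (−1.5 ± 0.13), and HOXB4 from 9.06, 7.86 and 9.70 CPM to 3.13, 3.13 and 4.03 CPM (−1.38 ± 0.21). HOXA13, the most posterior gene of its cluster, went from 38.4–44.2 to 24.7–28.9 CPM. Genes named ZNF, a family of zinc finger proteins of which many repress transcription, fell in 142 of 415 (34.2%, against 10.9% of all tested genes) and rose in 10, with a median of −0.32, and this grouping too was made after their values were seen. After the length correction 124 fell and 15 rose. In neutral saline 46 ZNF genes rose and 30 fell (median 0.00), and the difference was more negative in acid for 122 and more positive for 12.

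Intestinal lineage and differentiation genes had 4 higher (14.3%) and 7 lower (25%) of 28, with a median whose sign turned with the scaling. The shares over all tested genes were 8.64% and 10.9%. Beside CDX2, the endoderm factor GATA6 fell from 43.4–43.8 to 27.9–30.2 CPM (−0.59 ± 0.08), and the proliferation factor KLF5 from 269–307 to 205–222 CPM, whereas KLF5 rose in neutral saline from a group mean of 447 to 621 CPM. KLF4, which acts in differentiation, rose from 61.2–74.8 to 107–124 CPM. ATOH1, the secretory lineage factor, was at 0.702–1.13 CPM at 3 h and 0.0682–0.204 CPM at 6 h. Interferon-stimulated genes fell in 13 of 36 (36.1%) and rose in 3 (8.33%, near the share of all tested genes), with a median of −0.06. In neutral saline 6 fell and 12 rose. The RNA-binding antiviral proteins IFIT1, IFIT3 and IFIT5 went from 130–147 to 75.7–80.1 CPM, from 128–146 to 71.6–75.1 CPM and from 58.5–69.1 to 29.8–31.9 CPM. ISG20, an exonuclease, rose from 17.0–19.2 to 28.6–44.7 CPM.

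Of the tested genes that sense acid or move acid and base, 3.7% rose and 11.1% fell, against 8.64% and 10.9% of all tested genes. Of 47 such genes 27 were expressed enough to test, of which 1 rose and 3 fell, with a median of −0.05 that turned positive after the length correction. The other 20 were left out by the filter on low counts, among them the proton-sensing receptors GPR4, GPR65 and GPR132 and the channels ASIC2, ASIC3, ASIC4, TRPV4 and OTOP1. SLC9A2, a sodium-proton exchanger of the apical membrane, rose from 65.5, 72.3 and 76.4 CPM to 97.8, 99.9 and 105 CPM (0.50 ± 0.10, edgeR adjusted p = 0.00103). The endosomal exchanger SLC9A8 fell from 35.9–43.3 to 26.7–31.0 CPM and the lactate carrier SLC16A1 from 150–163 to 122–139 CPM (adjusted p = 0.00858, and 0.0641 without the third 6 h library). The sulfate and anion exchanger SLC26A2 fell most, from 464, 576 and 594 CPM to 243, 216 and 265 CPM (−1.18 ± 0.16), and by 1.5 on the log2 scale in neutral saline. The carbonic anhydrases CA2, CA9, CA12 and CA13, the bicarbonate carriers SLC4A2 and SLC4A7, the acid-sensing channel ASIC1 and the sodium pump gene ATP1B1 were not called. Standard errors of these log2 changes ran from 0.07 for CA12 and ATP1B1 to 0.14 for CA13. Proton pump (V-ATPase) genes rose in 5 of 18 and fell in 1, against 7 and none after the length correction and 2 and 1 with totals alone.

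Chloride secretion genes, the machinery for which T84 cells are a common model, fell in 4 of 18 and rose in 1 (median −0.13). The lean to falls was lost after the length correction, with 1 lower and 1 higher, and the counts were 2 and 1 with median-of-ratios factors and 6 and 1 with totals alone. CFTR, the chloride channel, stood at 395, 518 and 438 CPM at 3 h and 378, 327 and 383 CPM at 6 h (−0.31 ± 0.10, edgeR adjusted p = 0.0323), a call lost after the length correction (0.0707) and without any 1 of 5 libraries. The adenosine receptor ADORA2B fell from 40.5–46.2 to 27.4–34.1 CPM (−0.49 ± 0.10). Junction genes rose in 7 (24.1%) and fell in 3 (10.3%) of 29 (median 0.04), and rose in 15 and fell in none in neutral saline. In acid 11 rose and 3 fell after the length correction, and 3 rose and 4 fell, with a negative median, with totals alone. CLDN4, a claudin that seals the paracellular path, went from 1115, 915 and 1029 CPM to 2065, 2434 and 2394 CPM (1.17 ± 0.09), and the pore-forming CLDN2 from 45.4–60.8 to 37.9–43.2 CPM. Clock genes rose in 5 (27.8%) and fell in 3 (16.7%) of 18, with a median that changed sign with the scaling. The repressor NR1D1 went from 30.4–39.9 to 98.1–131 CPM. Of 34 DNA replication genes 1 rose and 5 fell in acid (2.94% and 14.7%), and of 32 mitosis genes 4 rose and 5 fell (12.5% and 15.6%). The shares over all tested genes were 8.64% and 10.9%. In neutral saline 2 replication genes rose and 20 fell, and 1 mitosis gene rose and 17 fell. Both medians in acid turned sign with the scaling. After the length correction the acid counts were 4 higher and 3 lower for replication and 6 and 3 for mitosis, and with totals alone 9 and 8 fell and none rose. Splicing factors and CLK kinases rose in 12 of 32 and fell in 1, against 18 and 1 after the length correction and 6 and 3 with totals alone. The fallen one was the kinase CLK2, from 26.0–31.4 to 13.3–18.6 CPM, while CLK1 went from 75.0–84.0 to 140–148 CPM.

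**Figure D5:**
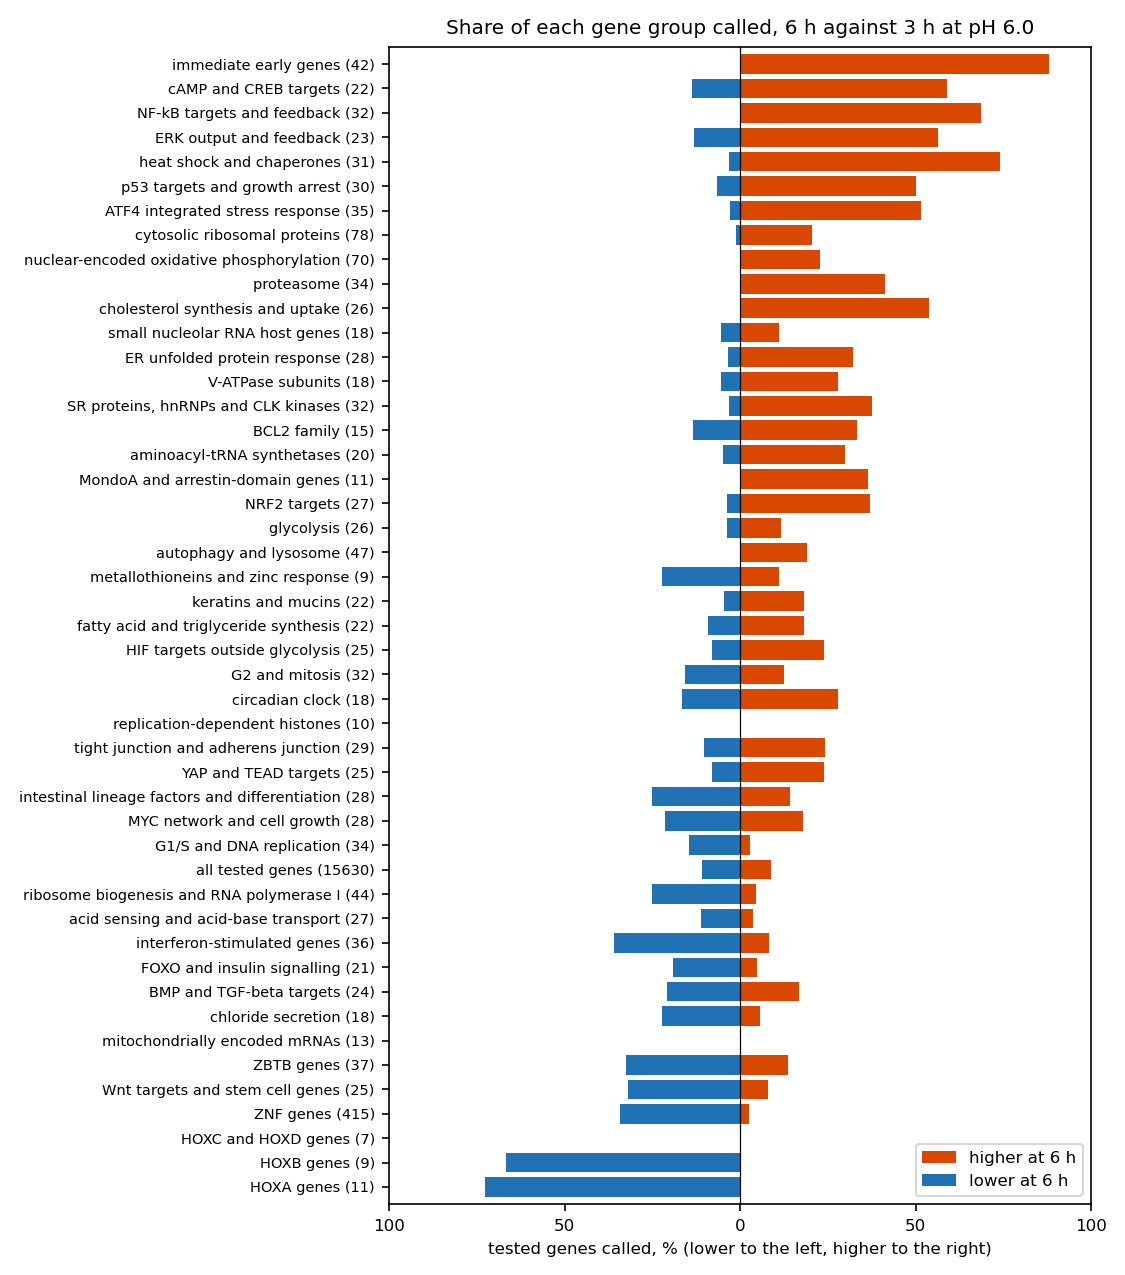
Share of the tested genes of each group that was called lower (bars to the left) or higher (bars to the right) at 6 h than at 3 h in acid, in percent, with the number of tested genes in brackets. Immediate early genes reach 88.1% higher and HOXA genes 72.7% lower, against 8.64% and 10.9% for all tested genes.

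Of the well-expressed genes, the 5 with the most positive difference between the time effects in acid and neutral saline were CCN2, GADD45B, CD83, KIT and RND1, and the 5 with the most negative difference HOXB4, HOXB-AS3, GALNT4, HOXB3 and KIF21B. CCN2, a matricellular protein and a common readout of the coactivator YAP, went from 43.3, 37.4 and 34.0 CPM to 135, 129 and 172 CPM in acid and from a group mean of 38.7 to 30.7 CPM in neutral saline (difference 2.26 ± 0.15, edgeR adjusted p = 1.91e-09). Its relative CCN1 rose from 8.01–11 to 22.3–28.3 CPM. Of 25 YAP targets, 6 rose (24%) and 2 fell (8%) in acid, against 8.64% and 10.9% of all tested genes. In neutral saline 15 of them rose and 3 fell. KIT, a receptor tyrosine kinase, and KIF21B, a kinesin, were called in neutral saline and not in acid. KIT stood at 7.53–12.6 and 6.78–11.5 CPM in acid, and fell from a group mean of 4.62 to 0.989 CPM in neutral saline. KIF21B stood at 11.3–12.2 and 11.7–16.4 CPM in acid, and rose from 14.6 to 58.1 CPM in neutral saline (2.00 ± 0.12). GALNT4 and HOXB-AS3 fell in acid and rose in neutral saline, but exons of POC1B-GALNT4 overlap 93.2% of the former and exons of other genes 30.1% of the latter. The call of HOXB-AS3 in acid was lost without any 1 of 3 libraries (adjusted p up to 0.0545).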

How the data were processed

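RNA of 12 libraries was sequenced by the submitters, and each deposited table gives, for every gene, the authors' read count and their RPKM value. STAR, CASAVA and build hg19 are named, per the submitters' processing notes, without versions. Which gene models, counter and strand setting were used is not given in the sources used here, so reads of overlapping genes cannot be told apart. RPKM values served only to recover gene lengths, and 100.0% of the deposited RPKM values were reproduced from the counts within a relative tolerance of 1e-06. Of 48162 gene identifiers, 45342 had a symbol and 30685 a count.

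Tests on the counts used the robust quasi-likelihood F test of edgeR 4.0.16 in R 4.3.3, with 1 fit of all 12 libraries in 4 groups (TMM factors, default expression filter, 15630 genes, 8 residual degrees of freedom), with Benjamini-Hochberg adjustment over all tested genes. A standard error is the log2 change divided by the square root of F. CPM uses TMM-scaled totals. Alternatives were DESeq2 1.42.0, other scalings and filters, a test against a fold of 1.2, a replicate block, a length correction by splines with 5 degrees of freedom, a fit of the 2 groups alone, and each library left out. On counts simulated for time in acid, 79% of the genes changed 1.5-fold and 95% of those changed 2-fold were recovered. The changed genes, 100 of each size, were drawn from better-expressed genes only, and no length trend was simulated.

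Members and gene lists were chosen with earlier results of these data known. Of 1307 list entries 12 matched no gene. The text names the 10 largest called changes each way with non-overlapping libraries and a mean count of 100 or more, the 5 largest differences each way, up to 4 members of a list by smallest p, acid-handling genes, and members chosen by role after their values were seen, such as FOS, EGR1, NR4A2, NR4A3, NFKBIA, TNFAIP3, HSPA8, CDKN1A and ATOH1. Part of the list members is left out, and some items are not reported here. Promoters came from RefSeq, matched by symbol for 10905 tested genes. Same-numbered 3 h and 6 h acid libraries did not deviate together (Pearson r over tested genes −0.121, −0.092 and 0.068), so numbers were not taken to pair them. Between acid and neutral saline, same-numbered libraries had r of 0.349, 0.149 and 0.043 at 3 h and 0.111, 0.202 and −0.022 at 6 h. Some sharing by number there is possible. With a replicate block the difference was called for 4774 genes, against 4589 without it. No library repeated another: within groups, pairs had a chi-square of 5.40 to 19.5 per degree of freedom.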

Additional observations from a re-analysis of the deposited data

Results flagged for a closer look

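By the test of the difference itself (edgeR, adjusted p under 0.05), the change differed between acid and neutral saline for 4589 genes, 29.4% of 15630. So did the change of 25 of the 26 genes named for the size of their change, in acid or of the difference. Genes named for the difference had to be called for it, and a large change in acid enters the difference. That count therefore follows largely from the naming rule. Among genes that rose in acid, the difference (acid minus neutral, log2 scale) was 1.31 for DUSP5, 1.87 for FOSB, 1.53 for TENT5B, 1.40 for CSRNP1, 1.87 for SERTAD1, 1.96 for RND1, 0.98 for GEM, 1.26 for FOSL1, 2.14 for CD83, 2.26 for CCN2 and 2.16 for GADD45B. Among genes that fell in acid it was −1.72 for HPS6, −1.55 for AXIN2, −1.11 for RASSF10, −1.81 for HOXB3, −0.66 for CDX2, −1.29 for ZBTB9, −2.04 for HOXB4, −0.73 for DOLK, −1.16 for EGLN3, −1.20 for PAQR8, −1.83 for HOXB-AS3 and −1.81 for GALNT4. It was 2.05 for KIT and −1.79 for KIF21B, which were not called in acid.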

How the results depend on the processing

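Numbers of called genes stayed within 1.5 times the reported ones under every alternative run, except a test against a fold of 1.2 and the fit without the third acid 3 h library. The fold test called 1058 genes in acid, 1666 in neutral saline and 2357 for the difference. Leaving out libraries gave 1915 to 3408 genes in acid, 3309 to 4930 in neutral saline and 3457 to 5136 for the difference. The cause of the lowest acid count was not tested. A replicate block gave 3289 in acid, and every one of the 187 named genes called in acid stayed called with it. Of those 187, 128 stayed called under all 15 alternatives and none changed direction. Calls were lost for 57 genes in the fold test, for 16 with totals alone, for 5 after length correction and for 5 to 23 with a library left out. Some uncalled genes changed sign. After length correction the log2 change was 0.024 for ASIC1, 0.015 for CA12, 0.038 for KCNK5, 0.047 for SLC4A2 and 0.008 for SLC9A3. With totals alone it was −0.023 for EGR1, −0.030 for FOSL2 and −0.018 for ZFP36L1. SLC9A3 was at 0.005 with DESeq2 and 0.002 with median-of-ratios factors. Over the fits with a library left out the range was −0.077 to 0.012 for ASIC1, −0.082 to 0.038 for KCNK5, −0.329 to 0.072 for KIT, −0.099 to 0.042 for SLC4A2, −0.110 to 0.182 for SLC9A3, −0.101 to 0.614 for TRPV1 and −0.019 to 0.174 for RHOB. With 3 libraries a group, 79% of simulated 1.5-fold changes of better-expressed genes in acid were recovered, so changes of that size can be missed at this depth. Recovery of changes in genes of low count was not simulated.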

Other observations

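TYRP1, a melanin synthesis enzyme, was listed at 0 CPM in 8 of the 12 libraries and at 6.33, 9.45 and 10.5 CPM in 1 library each of neutral saline at 3 h, neutral saline at 6 h and acid at 6 h, with 0.243 CPM in 1 more.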
